A study of Homo sapiens with 6 samples.

Results

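Complexes I, III and IV of the respiratory chain are assembled from subunits coded in the nucleus and a smaller number coded in the mitochondrial DNA, and the nuclear-encoded subunits are the subject here. They were taken by name from the count table: 54 of its 54261 gene rows, of which 35 belong to complex I (NDUF genes), 9 to complex III (UQCR genes and CYC1) and 10 to complex IV (COX genes). The cells were A549, an established human lung adenocarcinoma line grown in medium with fetal bovine serum. One group of 3 libraries came from cells given si-SNHG17, a small interfering RNA that targets the noncoding transcript SNHG17, and the other group of 3 libraries from cells given the control siRNA si-NC. The labels number the libraries as repeats without saying that they came from separate cultures, so a p-value here reflects how far these libraries vary, and part or all of that variation may be technical.

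Complex I takes electrons from NADH through a flavin and a chain of iron-sulfur clusters in its matrix arm and passes them to ubiquinone, while its membrane arm pumps protons. Complex III hands the electrons from ubiquinol to cytochrome c, and complex IV hands them from cytochrome c to oxygen, with further proton pumping that drives ATP synthase. The nuclear genes code for the redox centres of the complex I matrix arm, for the iron-sulfur protein and cytochrome c1 of complex III, and for a large set of accessory subunits around the mitochondrially encoded cores. The accessory subunits serve assembly, stability and regulation.

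Total counts per library were between 8643076 and 12477214. SNHG17 itself was at 7.82, 8.39 and 11.3 CPM (counts per library brought to 1 common size) in si-SNHG17 libraries, against 38.7, 36.2 and 51.4 CPM in si-NC libraries. The log2 fold change was -2.21 (adjusted p = 2.84e-07, edgeR), and the exact two-sided permutation test of its log2 level gave p = 0.1, the smallest that 3 against 3 libraries allow. Of 15614 genes that passed the filter on low counts, 19.6% were lower and 19.6% higher in si-SNHG17 cells at an adjusted p under 0.05 (edgeR quasi-likelihood test, Benjamini-Hochberg over all genes tested). Their median log2 fold change was 0.01. Keratin genes KRT8, KRT18 and KRT7 averaged 2530, 2280 and 4944 CPM in si-SNHG17 cells and 4257, 4355 and 4086 CPM in si-NC cells, EPCAM was at 0.48 to 1.71 CPM, and the immune genes PTPRC and CD3E were at 0 in all libraries. In a bulk sample, fewer cells of a kind and less RNA per cell cannot be told apart.

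Nearly all nuclear-encoded respiratory genes had estimates below 0 after SNHG17 knockdown, most of them small. Of the 53 genes tested, 23 fell, 1 rose (NDUFV2) and 29 did not pass the threshold. Those that fell were 43.4% of the genes tested, beside 19.6% of all genes and 26.1% of the 4128 genes with a mean of at least 50 CPM, of which 27.4% rose. The estimate lay below 0 for 51 of the 53 genes, beside 49.2% of all genes tested. The median log2 fold change was -0.24. COX6B1, at 47.3% of its si-NC level, was the sole gene lowered by at least 2-fold. In 26 genes every si-SNHG17 library was below every si-NC library, and in 1 gene every one was above, while such separation was seen downward in 24.3% and upward in 25.1% of all genes tested. The remaining gene, NDUFA10, was not tested: its counts were 1, 3 and 0 after si-SNHG17 and 0, 3 and 3 after si-NC, at or under the 3 counts that a listed 0 allows (0.240 to 0.347 CPM). No direction can be read from so few counts, and whether reads of this gene were counted in another row or not counted is not given in the sources used here.

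**Figure D1:**
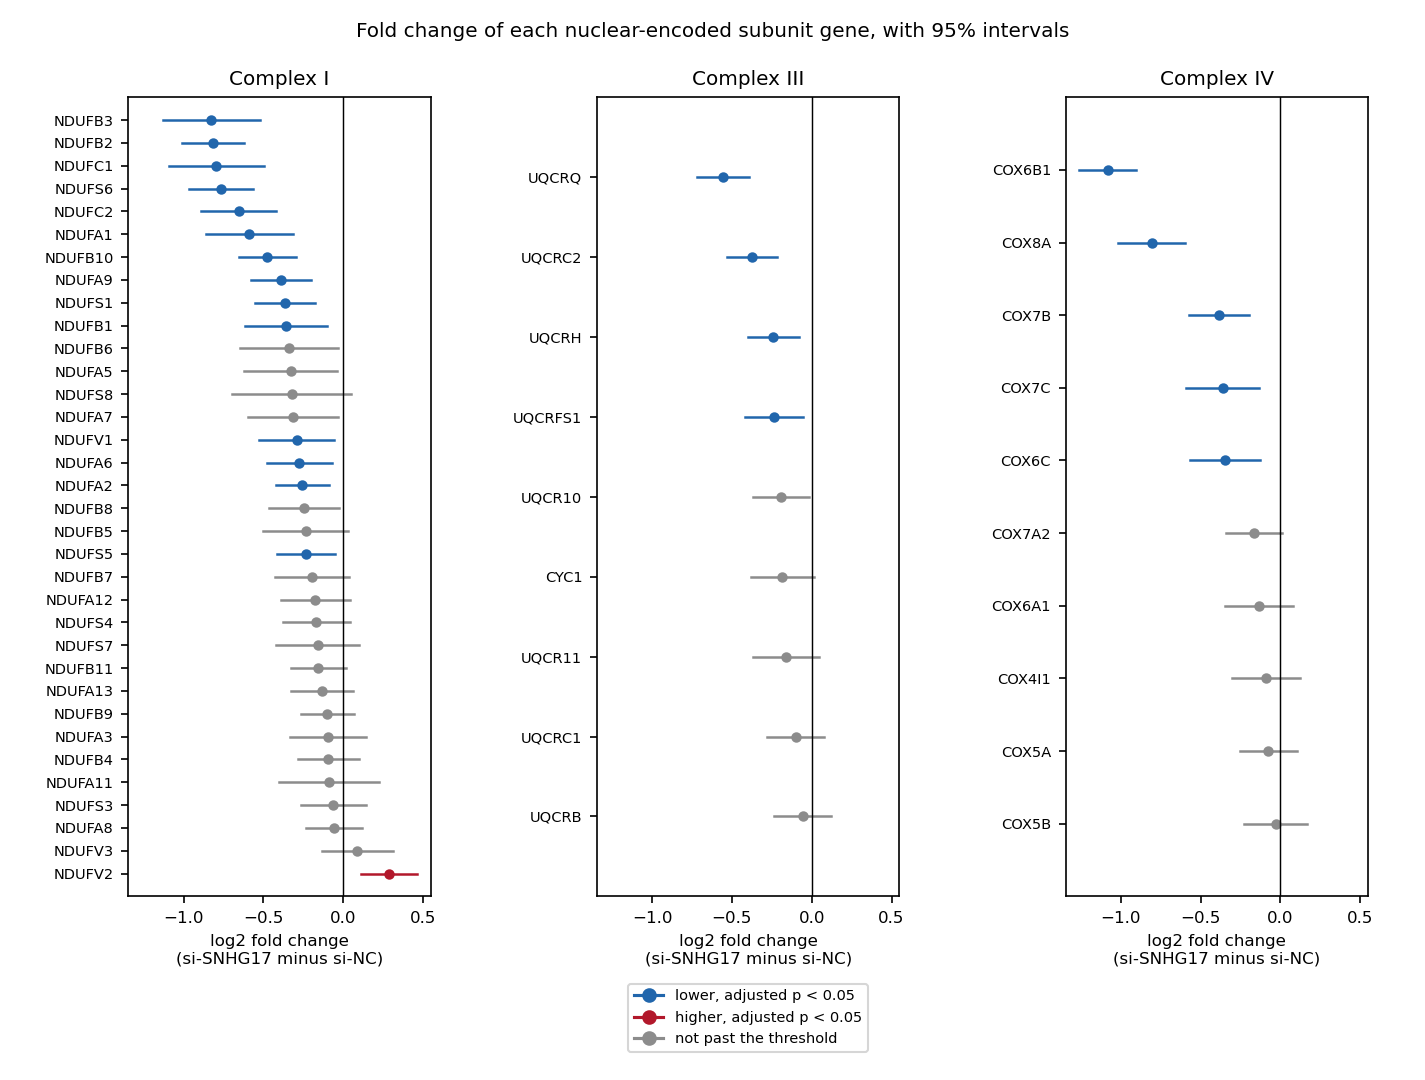
Log2 fold change (si-SNHG17 minus si-NC) of each tested subunit gene on the horizontal axis, with points for estimates and bars for 95% intervals, in panels for complexes I, III and IV. Blue marks the 23 genes that fell, red the 1 that rose (NDUFV2) and grey the 29 that did not pass an adjusted p of 0.05, and COX6B1 lies farthest left at -1.08.

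The libraries within a group did not share 1 level of these transcripts. The third si-NC library had the highest value of its group for 45 of the 53 genes. Its median deviation (log2) from the mean of the other si-NC libraries was 0.18 over the 53 genes and -0.000696 over all genes tested. The second si-SNHG17 library was the highest of its group for 34 genes, with a median deviation of 0.10 from the mean of the other si-SNHG17 libraries. In a chi-square comparison of counts, si-NC libraries 1 and 2 gave 2.25 per degree of freedom, and the third library gave 8.85 and 8.40 against them, while pairs from different groups gave 38.4 to 55.3. Without the third si-NC library, 20 of the 53 genes passed the threshold, of which 19 had passed with all 6, beside 41.5% of all genes tested in that fit. There 46 of the 53 estimates lay below 0, with a median of -0.17. Without the first si-SNHG17 library, which was the highest of its group for 4 genes, 15 of the 53 passed, 14 of them lower. Of all genes tested in that fit, 30.9% passed.

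**Figure D2:**
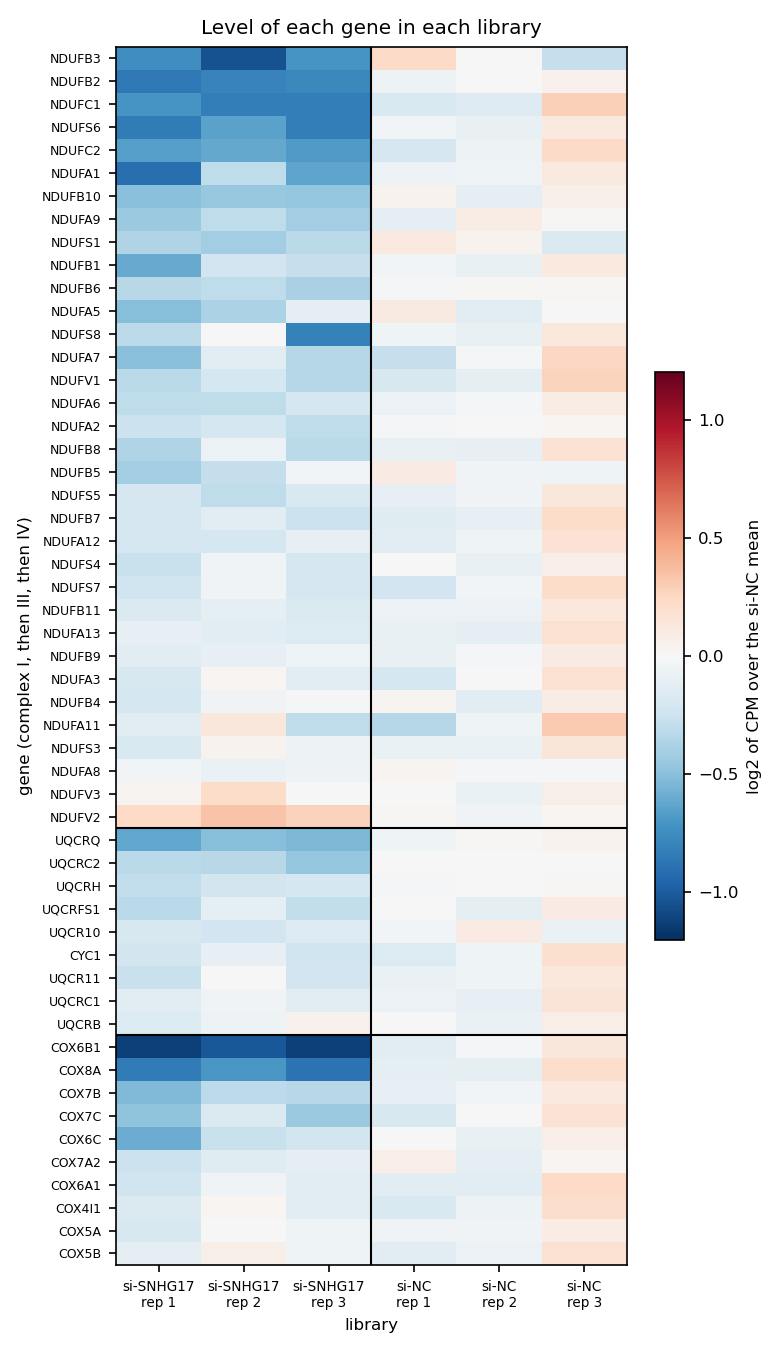
Colour gives the log2 ratio of a gene's CPM in a library to the si-NC mean (blue lower, red higher), with genes down the page grouped by complex and ordered by fold change, and the 3 si-SNHG17 libraries left of the 3 si-NC libraries. The third si-NC library is the reddest column of its group, the highest of the 3 for 45 of 53 genes.

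Summed over its genes, each complex had less of the library in every si-SNHG17 library than in any si-NC library, a description with no test. The 35 complex I genes summed to 2231, 2401 and 2291 CPM in the si-SNHG17 libraries and to 2628, 2657 and 2985 CPM in the si-NC libraries, a mean of 83.7% of control. The 9 complex III genes summed to 1445, 1551 and 1463 CPM with si-SNHG17 and to 1677, 1695 and 1857 CPM with si-NC, or 85.3%. The 10 complex IV genes summed to 1957, 2231 and 2069 CPM with si-SNHG17 and to 2487, 2590 and 3028 CPM with si-NC, or 77.2%. None of the 3 sums overlapped between groups, and in each the second si-SNHG17 library and the third si-NC library were the highest of their groups. Much of the complex IV difference came from COX6B1 and COX8A. Without these genes the sum was 1548, 1788 and 1664 CPM with si-SNHG17 and 1727, 1781 and 2098 CPM with si-NC, and the groups overlapped.

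**Figure D3:**
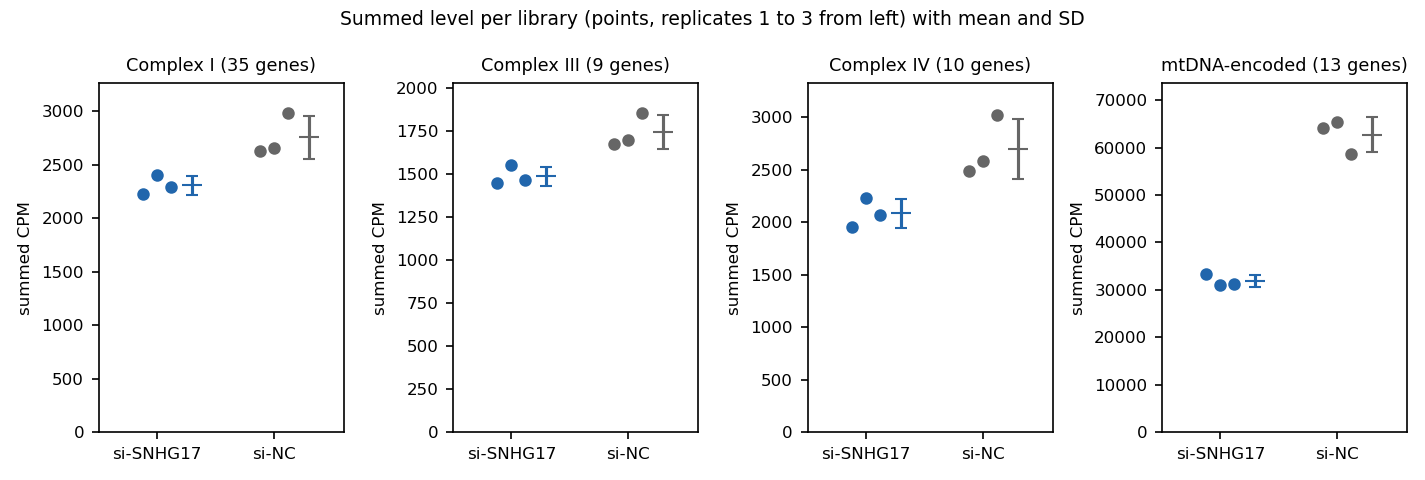
Summed CPM per library (points, replicates 1 to 3 from left to right) with the mean and SD beside them, si-SNHG17 left of si-NC, for complexes I, III and IV and for the 13 mitochondrially encoded subunits. The complexes averaged 2308, 1487 and 2086 CPM with si-SNHG17 against 2757, 1743 and 2702 CPM with si-NC, and the mitochondrially encoded sum 31855 CPM against 62709 CPM.

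Of the 34 complex I genes tested, 14 fell, 1 rose and 19 did not pass, with a median log2 fold change of -0.25. In the matrix arm 6 of 15 fell and 1 rose, and in the membrane arm 8 of 19 fell and none rose. The difference between the arms was not tested. Among the 6 core subunits of the matrix arm on the list, which hold the flavin and the iron-sulfur clusters or lie beside them, 2 fell and 1 rose.

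NDUFS1, the large iron-sulfur subunit at the electron entry, had 116, 112 and 119 CPM in si-SNHG17 cells, against 161, 154 and 132 CPM in si-NC cells. All si-SNHG17 values lay below all si-NC values, and the gene fell by 0.37 on the log2 scale (SE 0.09, adjusted p = 0.00465). NDUFV1, which binds NADH and the flavin, had 134, 145 and 133 CPM with si-SNHG17 and 146, 154 and 202 CPM with si-NC. Its groups were separate by a narrow margin, with the third si-NC library far above the others, and the log2 fold change of -0.29 (adjusted p = 0.0467) became -0.14 (adjusted p = 0.146) without that library.

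NDUFV2, the small iron-sulfur partner of NDUFV1, went the other way, with 81.6, 87.9 and 84.1 CPM in si-SNHG17 cells and 70.1, 67.6 and 70.4 CPM in si-NC cells. Every si-SNHG17 library was above every si-NC library, and the log2 fold change was 0.29 (SE 0.08, 95% interval 0.11 to 0.46, adjusted p = 0.0135). The adjusted p was 0.0591 without the second si-SNHG17 library and 0.0642 without the second si-NC library. NDUFV2P1, a pseudogene copy counted in a row of its own, had 57.1, 63.5 and 65.9 CPM with si-SNHG17 and 56.8, 53.7 and 54.7 CPM with si-NC, a log2 fold change of 0.18 that did not pass (adjusted p = 0.147). How reads common to gene and copy were divided is not given in the sources used here, so the NDUFV2 value is uncertain to that extent.

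The other core genes did not pass. NDUFS3, part of the ubiquinone module, had 75.3, 88.0 and 81.6 CPM with si-SNHG17 and 80.8, 80.5 and 94.4 CPM with si-NC, with a 95% interval of the log2 difference of -0.27 to 0.14. NDUFS7, which holds the last cluster before ubiquinone, had 34.7, 39.9 and 35.8 CPM with si-SNHG17 and 35.1, 40.2 and 47.9 CPM with si-NC (interval -0.42 to 0.10). NDUFS8, a neighbouring iron-sulfur subunit, had 14.6, 18.1 and 10.4 CPM with si-SNHG17 and 17.5, 17.1 and 19.9 CPM with si-NC, and its interval was the widest on the low side among the genes that did not pass (-0.70 to 0.05). In all of these the groups overlapped.

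The complex I genes that fell most were accessory subunits, and 5 of the 6 sit in the membrane arm. NDUFB3, a small subunit of the distal membrane arm, had 21.4, 17.4 and 22.0 CPM in si-SNHG17 cells and 42.0, 35.9 and 29.6 CPM in si-NC cells, a log2 fold change of -0.83 (SE 0.14, adjusted p = 0.000406). NDUFB2, of the same region, had 38.5, 40.0 and 40.9 CPM with si-SNHG17 and 66.9, 70.3 and 72.6 CPM with si-NC (-0.81, SE 0.09, adjusted p = 8.92e-06). Both were separated between groups, NDUFB2 with almost no spread among its libraries and NDUFB3 with its lowest control in the third si-NC library, which was high for most other genes.

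NDUFC1 and NDUFC2 are partner subunits of the membrane arm. NDUFC1 had 18.2, 16.8 and 16.8 CPM with si-SNHG17 and 26.3, 26.8 and 36.4 CPM with si-NC (-0.79, adjusted p = 0.000493). NDUFC2 had 49.5, 51.5 and 49.0 CPM with si-SNHG17 and 68.2, 75.4 and 92.1 CPM with si-NC (-0.65, adjusted p = 0.000334). Groups did not overlap in either gene, and the third si-NC library was the highest in both. NDUFC2 shares exon sequence with the readthrough gene NDUFC2-KCTD14, whose row held 10 to 45 counts.

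NDUFS6, a zinc-binding subunit added late in assembly of the matrix arm, had 56.0, 64.3 and 56.6 CPM with si-SNHG17 and 98.0, 94.1 and 109 CPM with si-NC (-0.77, SE 0.09, adjusted p = 2.21e-05). NDUFA1, a small membrane-arm subunit coded on the X chromosome, had 47.8, 72.4 and 57.9 CPM with si-SNHG17 and 85.0, 86.3 and 97.2 CPM with si-NC (-0.59, SE 0.13, adjusted p = 0.00224). All si-SNHG17 libraries were below all si-NC libraries in both genes, with the wider spread in NDUFA1. The exons of NDUFA1 overlap the antisense gene RNF113A, whose row rose (log2 fold change 0.44, adjusted p = 0.0102), and whether counting used strand is not given in the sources used here.

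A further 6 complex I genes fell by smaller amounts: NDUFB10 (-0.48), NDUFA9 (-0.39), NDUFB1 (-0.36), NDUFA6 (-0.27), NDUFA2 (-0.26) and NDUFS5 (-0.23). Their groups were separate in every case, and their adjusted p ranged from 0.000482 for NDUFB10 to 0.0434 for NDUFS5. NDUFA6, which anchors an acyl carrier protein to the matrix arm, lost its call in 11 of 19 other settings, as did NDUFS5, which faces the intermembrane space. NDUFA2 lost its call in 6 of them and NDUFB1 in 5, while NDUFB10 and NDUFA9 passed in all 19. NDUFA8 changed least among the complex I genes, with 72.5, 70.3 and 71.3 CPM in si-SNHG17 cells and 75.7, 73.4 and 73.6 CPM in si-NC cells. The values of this subunit of the intermembrane face were separate between groups, yet its log2 difference was -0.06 with an interval of -0.23 to 0.12. NDUFV3 was the sole gene beside NDUFV2 with an estimate above 0 (0.09, adjusted p = 0.539).

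The 14 complex I genes not named above did not pass, with log2 fold changes from -0.34 (NDUFB6) to -0.09 (NDUFA11). NDUFB6 was lower in every si-SNHG17 library (9.59, 9.75 and 9.23 CPM) than in every si-NC library (11.8, 12.1 and 12.2 CPM), and its adjusted p was 0.0761. NDUFA11, NDUFA3, NDUFB4 and NDUFB9 were among those whose groups overlapped, and their estimates changed sign in at least 1 other setting. A p above the threshold does not show that these transcripts were at the same level.

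In complex III 4 of 9 genes fell, none rose, and the median log2 fold change was -0.19. UQCRQ, a small subunit near the ubiquinone site, had 107, 115 and 113 CPM in si-SNHG17 cells and 158, 166 and 169 CPM in si-NC cells, which was the largest difference of the complex (-0.56, SE 0.08, adjusted p = 6.21e-05). UQCRC2, a core protein on the matrix side, had 205, 204 and 186 CPM with si-SNHG17 and 257, 256 and 258 CPM with si-NC (-0.37, SE 0.07, adjusted p = 0.00115). The groups were far apart in both, and UQCRC2 hardly varied among the si-NC libraries.

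UQCRH, the hinge protein that helps cytochrome c1 meet cytochrome c, had 126, 133 and 133 CPM with si-SNHG17 and 152, 156 and 156 CPM with si-NC (-0.24, adjusted p = 0.0192). UQCRFS1, the Rieske iron-sulfur protein, had 175, 203 and 179 CPM with si-SNHG17 and 220, 203 and 234 CPM with si-NC (-0.24, adjusted p = 0.0397). UQCRH was clearly separate, while for UQCRFS1 the highest si-SNHG17 value (202.9) lay just under the lowest si-NC value (203.0). Without the first si-SNHG17 library neither passed (adjusted p = 0.0903 for UQCRH and adjusted p = 0.167 for UQCRFS1), which left 2 of the 9 genes called. Copies of both are counted in rows of their own: UQCRHL and UQCRFS1P1 did not pass (log2 fold changes of -0.08 and 0.11).

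CYC1, cytochrome c1, had 306, 334 and 301 CPM with si-SNHG17 and 318, 345 and 406 CPM with si-NC, with overlapping groups and an interval of -0.38 to 0.01. UQCRC1, the partner of UQCRC2, had 247, 263 and 247 CPM with si-SNHG17 and 258, 252 and 302 CPM with si-NC (interval -0.28 to 0.08). UQCRB, which lines the ubiquinone pocket, had 121, 129 and 140 CPM with si-SNHG17 and 135, 128 and 142 CPM with si-NC (interval -0.24 to 0.12). These did not pass and their groups overlapped. UQCR10 (-0.19) and UQCR11 (-0.16) did not pass either, although UQCR10 was separate between groups (adjusted p = 0.0780).

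In complex IV 5 of 10 genes fell, none rose, and the median log2 fold change was -0.26. COX6B1, which lies on the intermembrane face and bridges the complex IV monomers, had 265, 285 and 265 CPM in si-SNHG17 cells and 522, 571 and 632 CPM in si-NC cells. Even the lowest si-NC library was far above the highest si-SNHG17 library, and the log2 fold change was -1.08 (SE 0.08, adjusted p = 3.34e-07). COX8A, a small membrane-spanning subunit, had 144, 158 and 139 CPM with si-SNHG17 and 238, 237 and 298 CPM with si-NC (-0.81, SE 0.10, adjusted p = 1.92e-05), again without overlap.

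COX7B, another single-span subunit, had 130, 150 and 149 CPM with si-SNHG17 and 175, 183 and 203 CPM with si-NC (-0.39, adjusted p = 0.00312). COX7C had 149, 185 and 153 CPM with si-SNHG17 and 182, 208 and 235 CPM with si-NC (-0.36, adjusted p = 0.0146). Its pseudogene copy COX7CP1, counted in a row of its own, averaged 28.9 CPM with si-SNHG17 and 29.3 CPM with si-NC and did not pass (-0.02). How reads common to COX7C and the copy were divided is not given in the sources used here. COX6C had 68.4, 85.8 and 88.5 CPM with si-SNHG17 and 104, 96.9 and 109 CPM with si-NC (-0.35, adjusted p = 0.0149). The groups were separate for COX7B and COX6C and overlapped for COX7C, where the second si-SNHG17 library was above the first si-NC library. Without the first si-SNHG17 library COX7C (adjusted p = 0.0825) and COX6C (adjusted p = 0.0870) no longer passed, which left 3 of the 10 genes called.

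COX4I1, a regulatory subunit that binds the mitochondrially encoded COX1 early in assembly, had 465, 535 and 478 CPM with si-SNHG17 and 462, 503 and 608 CPM with si-NC. Its early partner COX5A had 105, 120 and 115 CPM with si-SNHG17 and 116, 116 and 127 CPM with si-NC. COX5B, a zinc-binding matrix subunit, had 223, 254 and 233 CPM with si-SNHG17 and 220, 230 and 274 CPM with si-NC. None of them passed, all overlapped, and the 95% interval of the log2 difference was -0.30 to 0.12 for COX4I1, -0.26 to 0.10 for COX5A and -0.23 to 0.17 for COX5B. COX6A1 (-0.13) and COX7A2 (-0.17) did not pass. COX6A1 has a pseudogene row of its own, COX6A1P2, at 141 ± 11.4 CPM with si-SNHG17 and 147 ± 5.13 CPM with si-NC (SD, n = 3 each).

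Per kilobase of transcript, the nuclear-encoded levels in si-NC cells ranged from 1214 CPM per kb for COX6B1 to 7.87 CPM per kb for NDUFV3 among the tested genes. The 7 highest were all complex IV genes: COX6B1, COX4I1, COX6A1, COX8A, COX7B, COX5B and COX7C. In si-SNHG17 cells COX6B1 was at 573 CPM per kb and COX4I1 at 688 CPM per kb, so COX6B1 was no longer the highest, whereas in si-NC cells COX4I1 was at 733 CPM per kb. These levels depend on the 1 transcript of each gene whose length was used.

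The 3′ UTRs of these genes were searched for 1 short site. An earlier analysis of these same counts had singled out the letters CTCTGT as common in the 3′ UTRs of mRNAs that fell, so the following is a description with no test. Of the 53 tested genes, 4 held CTCTGTA in the 3′ UTR of the transcript used, and all 4 fell (NDUFB2, NDUFB3, NDUFB10 and NDUFA9, median log2 fold change -0.64). A further 9 held CTCTGT not followed by A, of which 4 fell (COX6B1, COX7C, NDUFC2 and NDUFS5, median -0.23). Of the 40 with neither, 15 fell and 1 rose (median -0.22). Among 11569 tested mRNAs with a 3′ UTR, 34.7% of the 1369 with CTCTGTA fell and 13.5% rose, while of the 6632 with no CTCTGT 15.9% fell and 25.9% rose. COX8A, NDUFC1, NDUFS6, NDUFA1 and UQCRQ fell with no CTCTGT in that window.

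The sites below are the CTCTGTA sites in the 3′ UTRs of the 4 genes. For contrast, the 3′ UTR CTCTGT sites of COX6B1 and NDUFC2 follow, the 2 largest falls among those with CTCTGT alone. Each is 30 bases of GRCh38 in the sense of the transcript (GENCODE 29 annotation), with the 6 letters in capitals, so that the base after the capitals shows whether A follows. NDUFB2 and NDUFA9 each hold 1 further CTCTGT in the 3′ UTR, followed by C, that is not shown. Sites before the 3′ UTR, a CTCTGTA in NDUFB10 and a CTCTGT in COX6B1, are not shown either.
NDUFB2, chr7:140704942-140704971, plus strand: gactcagcctcaCTCTGTacaagtgggtgt
NDUFB3, chr2:201085660-201085689, plus strand: ataagatttcttCTCTGTagcctacttgtc
NDUFB10, chr16:1961923-1961952, plus strand: cctgctgtgtggCTCTGTatgactgttgct
NDUFA9, chr12:4692981-4693010, plus strand: ttcctttaaaacCTCTGTactaggccgggt
NDUFA9, chr12:4694096-4694125, plus strand: gctatcttgcaaCTCTGTaagctgtaggta
COX6B1, chr19:35658656-35658685, plus strand: catctccctttcCTCTGTcctccatccttc
NDUFC2, chr11:78068752-78068781, minus strand: acgacagtcttgCTCTGTcatcaggctgga
The UTRs behind them differ in length, from 69 bases in NDUFB10 and 135 in NDUFB3 and COX6B1 to 7209 in NDUFA9, and a long UTR holds a given 6 letters more often than a short one.

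These are short transcripts, with a median of 773 bases beside 2908 bases over the tested mRNAs with a 3′ UTR. Among the 701 such mRNAs of at most 1000 bases, 25.0% fell and the median log2 fold change was -0.08, beside 43.4% and -0.24 for the respiratory genes. With GC content and transcript length fitted as an offset, 23 of the 53 genes passed, 17 of them the same as before, and 44 estimates lay below 0. Of all genes tested, 43.6% passed in the same fit, so calls in either direction were about as common over all genes. Called complex IV genes numbered 3 in that fit, with COX7C and COX6C no longer past the threshold, and NDUFA2, NDUFA6, NDUFB1, NDUFS5 and UQCRH did not pass either. Genes that passed with the offset and not without it were CYC1 (-0.23, adjusted p = 0.00381), UQCRC1 (-0.17, adjusted p = 0.0254), UQCR11 (-0.20, adjusted p = 0.0343), NDUFS7 (-0.30, adjusted p = 0.00980), NDUFB7 (-0.29, adjusted p = 0.00477) and NDUFB11 (-0.18, adjusted p = 0.0221), which took complex III to 6 called genes.

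**Figure D4:**
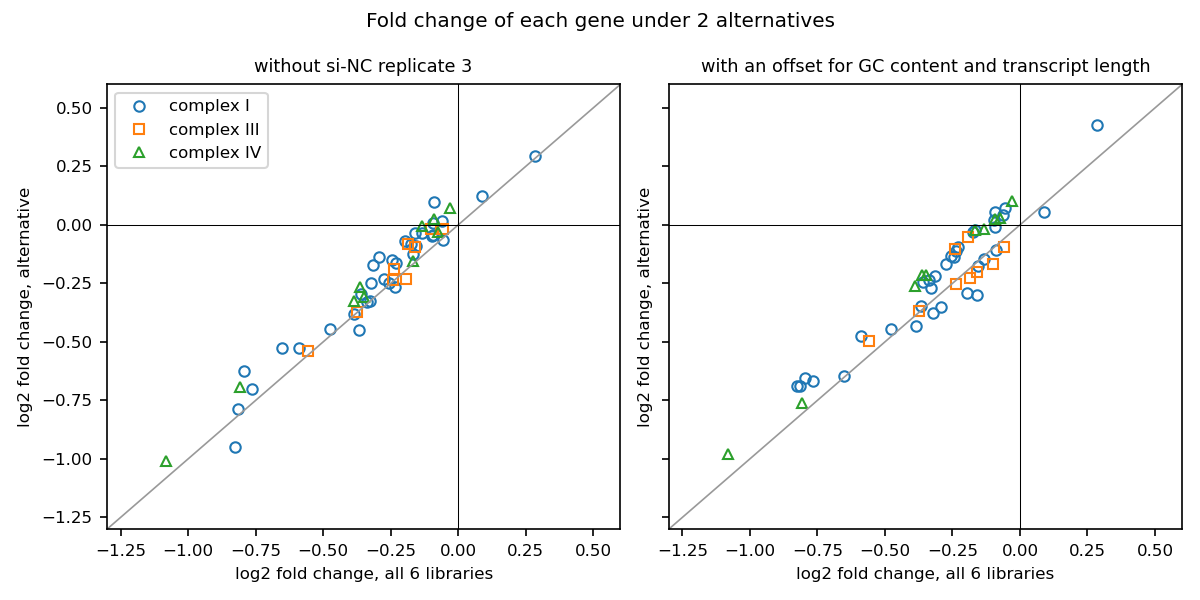
Log2 fold change (si-SNHG17 minus si-NC) of each gene with all 6 libraries on the horizontal axis against the same without the third si-NC library (left panel) and with GC content and transcript length fitted as an offset (right panel), with 1 symbol per complex and a grey line of equality. On the vertical axes, 46 (left) and 44 (right) of the 53 lie below 0.

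Promoter sequences from RefSeq (GRCh38.p14, 250 bases before to 50 after the start) matched 47 of the 54 genes. They were searched on both strands for letters bound by regulators known for respiratory genes. The NRF1 letters, GCGCA and GCGC with 1 base between them, were in 10 of them (21.3%, beside 6.28% of 27305 promoters), the ETS letters CCGGAAG, the kind bound by GABPA, in 13 (27.7%, beside 10.67%), the YY1 letters, AAGATGG followed directly by CGGC, in 3 (6.4%, beside 0.92%), and the E-box CACGTG in 4 (8.5%, beside 7.43%). Of the tested genes, 2 of 10 with the NRF1 letters fell, beside 18 of 36 without them. For the ETS letters, 6 of 13 with them fell, beside 14 of 33 without. These are counts with no test, and a match does not show binding.

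The promoters of the gene that fell most, COX6B1, and of NDUFB4, which holds 3 NRF1 matches and did not pass, are shown with the ETS letters (on the opposite strand, in COX6B1) and the NRF1 letters (in NDUFB4) in capitals.
COX6B1, chr19:35648073-35648372, plus strand: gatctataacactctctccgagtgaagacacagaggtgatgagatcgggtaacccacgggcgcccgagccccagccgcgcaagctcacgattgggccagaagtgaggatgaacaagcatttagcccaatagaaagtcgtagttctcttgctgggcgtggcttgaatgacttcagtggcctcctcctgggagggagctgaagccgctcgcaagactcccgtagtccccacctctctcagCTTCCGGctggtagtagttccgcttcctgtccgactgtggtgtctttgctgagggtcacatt
NDUFB4, chr3:120596086-120596385, plus strand: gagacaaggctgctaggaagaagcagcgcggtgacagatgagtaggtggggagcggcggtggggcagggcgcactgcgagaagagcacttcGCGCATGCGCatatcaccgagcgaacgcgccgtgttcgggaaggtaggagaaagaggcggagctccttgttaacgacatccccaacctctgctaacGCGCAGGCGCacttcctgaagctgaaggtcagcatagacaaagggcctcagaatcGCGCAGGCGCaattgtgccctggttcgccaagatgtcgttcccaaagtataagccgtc
The COX6B1 match starts 12 bases before the annotated start. NDUFB4 had 97.0, 109 and 111 CPM in si-SNHG17 cells and 115, 103 and 120 CPM in si-NC cells, which overlapped.

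The mitochondrially encoded subunits, which join the nuclear ones in complexes I, III and IV and in ATP synthase, were lower in si-SNHG17 cells. Of 13 such genes, 12 fell and none rose, with a median log2 fold change of -0.99. COX3, a complex IV core subunit, had 2968, 2667 and 2967 CPM in si-SNHG17 cells and 7978, 8353 and 8482 CPM in si-NC cells (-1.53, adjusted p = 5.49e-09). COX2, which holds the copper site that meets cytochrome c, averaged 4557 ± 204 CPM with si-SNHG17 and 10310 ± 259 CPM with si-NC (-1.18). ATP6, the proton channel subunit of ATP synthase, averaged 1814 ± 183 CPM with si-SNHG17 and 4044 ± 84.0 CPM with si-NC (-1.16). Complex III's CYTB fell by 1.10 on the log2 scale. ND1 was the exception, at 1519, 1420 and 1304 CPM with si-SNHG17 and 1550, 1581 and 1526 CPM with si-NC, an estimate of -0.13 that did not pass. Unlike the nuclear-encoded genes, the sum over the 13 subunits was lowest of its group in the third si-NC library (58582 CPM, beside 64098 and 65447 CPM). With the ribosomal RNA rows RNR1 and RNR2 included, 15 mitochondrially encoded genes held 4.16% to 4.53% of all counts with si-SNHG17. With si-NC they held 7.25% to 8.07%.

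Other nuclear genes of oxidative phosphorylation were counted in the same way. Of 17 ATP synthase genes tested, 11 fell and none rose. ATP5B, the catalytic beta subunit, had 262, 282 and 277 CPM with si-SNHG17 and 1025, 992 and 975 CPM with si-NC (-1.86, adjusted p = 8.28e-10) beside -1.08 for COX6B1. ATP5A1, the alpha subunit, fell by 0.73 on the log2 scale and ATP5G1, a membrane ring subunit, fell by 0.73. Of the 4 genes of complex II, SDHC, a membrane anchor, fell (-0.72, adjusted p = 3.92e-05), while SDHD (-0.26), SDHB (-0.12) and the catalytic SDHA (0.06) did not pass. Among subunits and carriers kept out of the list of 54, NDUFA4 (-0.48), cytochrome c, CYCS (-0.40), and the acyl carrier protein NDUFAB1 (-0.37) fell, and COX7A2L, a factor of supercomplexes, rose (0.26, adjusted p = 0.0236). Of 8 tissue-restricted isoforms, 6 were too low to test, and COX6B2 (-0.34) and UQCRHL (-0.08) did not pass.

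The assembly factors did not share 1 direction. For complex I, 4 of 13 fell and none rose, led by FOXRED1 (-0.65), ACAD9 (-0.61) and COA1 (-0.36). For complex III, 3 of 6 fell, with BCS1L, which inserts the Rieske protein, at -0.55 and UQCC2 at -0.67, and TTC19 rose (0.35). For complex IV, 7 of 22 fell and 6 rose: TACO1, the translational activator of COX1, averaged 23.1 ± 2.01 CPM with si-SNHG17 and 43.4 ± 4.57 CPM with si-NC (-0.91), COA5 was at -0.79, and HIGD2A was at 0.44. Shares near 19.6% in each direction are the background for these counts.

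Genes of mitochondrial DNA expression were likewise divided, with 5 of 19 higher (26.3%) and 4 lower (21.1%) and a median of 0.16. The background is 19.6% of all genes tested in each direction, for these counts and for the regulators below (10% each way). These shares are near or under it, so the genes named next are single rows and not a result about their lists. SUPV3L1 and PNPT1, the helicase and the nuclease that degrade mitochondrial RNA, rose (0.56 and 0.50), and SLIRP, which stabilises mitochondrial mRNA, fell (-0.44). Of 10 transcriptional regulators tested, MYC fell (-0.47, adjusted p = 0.000614) and GABPA, at a low level, rose (2.58 ± 0.24 CPM with si-SNHG17, 1.41 ± 0.27 CPM with si-NC, adjusted p = 0.0358), while NRF1 (0.26), CREB1 (0.25), YY1 (0.24) and HIF1A (-0.02) did not pass. The GABPA call was lost whichever library was left out (adjusted p = 0.0574 to 0.137) and also with DESeq2 (adjusted p = 0.111), without the filter (adjusted p = 0.0603) and with the replicate block (adjusted p = 0.0569). With library totals in place of the scaling factors, 6 of the 10 regulators passed, beside 39.3% of all genes tested. The median log2 fold change of all genes was also higher in that setting, so this count is not a result about the regulators.

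**Figure D5:**
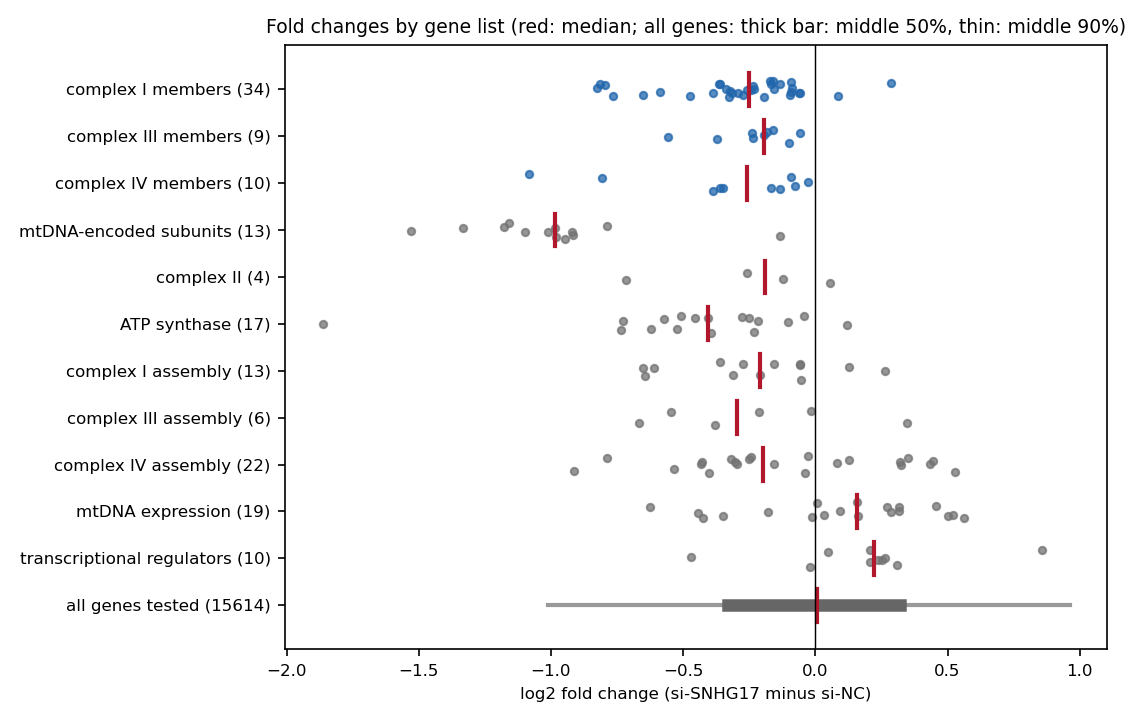
Log2 fold changes (si-SNHG17 minus si-NC, horizontal axis) of the tested genes of each list, with the nuclear-encoded subunits in blue, other lists in grey, the number of genes in brackets and a red line at each median. The bottom bar covers the middle 50% (thick) and the middle 90% (thin) of all 15614 genes, and the medians run from -0.99 for the mitochondrially encoded subunits to 0.22 for the regulators.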

How the data were processed

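RNA from 6 A549 libraries was sequenced single-end on an Ion Proton sequencer after total RNA extraction with Trizol and library preparation with an Ion Total RNA-Seq kit, per the labels' protocols. The deposited table holds whole-number counts of reads, with no normalization by the authors, in 54261 gene rows. The genome build is GRCh38, per the submitters' processing notes, while aligner, read counter, gene annotation, strand setting and handling of reads shared between copies were not given in the sources used here. Groups and replicate numbers came from the titles.

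The members and gene lists were chosen with earlier results of these data known. The counts were tested by edgeR 4.0.16 in R 4.3.3 (filterByExpr, TMM scaling, glmQLFit and glmQLFTest with no covariate). Adjustment was by Benjamini-Hochberg across the 15614 genes tested, and calls used 0.05. Fold changes put si-SNHG17 over si-NC on the log2 scale, CPM uses the scaled library sizes, and 95% intervals come from the fit. A count of 0 allows up to 3 counts, for counting error only. The procedure was tested on simulated data. Values per library are given by a rule: up to 6 called genes per direction and complex by size of change, the complex I core subunits, CYC1, UQCRFS1, COX4I1, COX5A, the 2 smallest changes per complex, and up to 3 genes of each other list by smallest p. NDUFB4, NDUFB6 and ND1 were added after their values were seen. Some genes of the other lists are not reported here.

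Alternatives were DESeq2 size factors, upper quartile factors, library totals with and without mitochondrially encoded genes, DESeq2 1.42.0, limma-voom (limma 3.58.1), no filter, a mean of at least 1 CPM, a replicate block, GC content and transcript length fitted as an offset (mgcv 1.9.3; values for 89.7% of the genes tested), a threshold of 0.01 and leaving out each library. Robust dispersion and a fit on mRNA rows alone were added after the data were seen. Transcript lengths and 3′ UTRs are those of 1 GENCODE 29 transcript per gene, the one of lower-median length among its best-ranked basic coding transcripts, and promoters are from RefSeq (GRCh38.p14), read with Python 3.11.15 and pandas 2.3.3.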

Additional observations from a re-analysis of the deposited data

How the results depend on the processing

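Across 19 alternatives, 2 of them added after the data were seen, 14 of the 24 calls held in every one: NDUFA1, NDUFA9, NDUFB2, NDUFB3, NDUFB10, NDUFS1, NDUFS6, NDUFC1, NDUFC2, UQCRC2, UQCRQ, COX6B1, COX7B and COX8A. Other scalings of the libraries gave 19 to 24 genes that fell, and mRNA rows alone gave 28. The labels do not say whether the replicate numbers pair the libraries. Correlations of same-numbered deviations were 0.06, -0.11 and -0.09, which cannot decide it. The largest between the groups was 0.206, for si-SNHG17 replicate 2 with si-NC replicate 3. With the replicate numbers as a block, 20 of the 24 calls held and 5579 of all genes passed. Leaving out 1 library at a time gave 15 to 25 genes past the threshold (14 to 24 lower, 0 to 1 higher), 10 to 16 in complex I, 2 to 4 in complex III and 3 to 5 in complex IV, with medians of -0.27 to -0.17 over all 53, -0.28 to -0.17, -0.24 to -0.19 and -0.30 to -0.18 by complex, and -0.0021 to 0.01 over all genes. It gave 4911 to 6601 calls over all genes (2438 to 3266 lower, 2473 to 3335 higher), 6 to 12 for complex IV assembly, 6 to 10 for mitochondrial DNA expression, 1 to 2 for regulators (never GABPA), 1 to 2 for complex II, 4 to 5 for complex III assembly and 3 to 4 for complex I assembly. The calls over all genes were 30.9% to 41.5% of those tested. At an adjusted p under 0.01, 4069 genes passed (2005 lower), with 14 of the 53 (14 lower, 0 higher): 9 in complex I, 2 in complex III and 3 in complex IV, and 4 complex IV assembly genes, 5 of mitochondrial DNA expression and 1 regulator. Without the filter 2 complex III genes passed and the median of all genes was -0.0243; it was 0.0452 with library totals and -0.0075 with totals that leave out mitochondrially encoded genes. The regulators passing numbered 6 with library totals, where 39.3% of all genes tested passed, and 1 with DESeq2, without the filter or with the block. The GC and length offset left 3 complex IV genes and gave 6 in complex III, while 43.6% of all genes tested passed with it. The fit on mRNA rows alone gave 2 in complex II. Estimates of genes that had not passed changed sign, and still did not pass, for COX5B (0.0091 with library totals, 0.1017 with the offset), NDUFA8 (0.0734), NDUFB4 (0.0533), NDUFB9 (0.0199), COX5A (0.0287), NDUFS3 (0.0425) and COX4I1 (0.0273) with the offset. Leaving out 1 library gave ranges of -0.0941 to 0.0707 for COX5B (0.0156 without si-SNHG17 replicate 1), -0.2326 to 0.0993 for NDUFA11 (0.0113 without si-SNHG17 replicate 3), -0.1185 to 0.0180 for NDUFS3, -0.1759 to 0.0272 for COX4I1 and -0.1872 to 0.0067 for NDUFA3, each highest without si-NC replicate 3. The causes of these changes were not tested. NDUFA10 had too few counts to test.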
